A study of Mus musculus with 10 samples.

Results

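The respiratory chain and the ATP synthase of mitochondria were followed through the mRNAs of their nuclear-encoded genes in mouse liver. Members were all protein-coding genes whose symbol starts with Nduf, Uqcr, Cox4 to Cox8 or Atp5, or is Sdha, Sdhb, Sdhc or Sdhd. These were 93 of the 38922 genes in the files, and 86 of them were expressed highly enough to be tested, among 13719 tested genes in all. Livers of male C57BL/6N mice, aged 6 weeks, were taken 6 h after an intraperitoneal injection of saline or of 0.5 µg/g CD95-Ab, an antibody that activates the death receptor CD95 (Fas). Each group held 5 mice, and each mouse gave its own RNA-seq library from whole liver, so that every value averages over all cells of the organ. No genetic change is named for either group, and no group with a control antibody was analysed here.

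Oxidative phosphorylation is carried out in the inner mitochondrial membrane. Complex I takes electrons from NADH and complex II takes them from succinate. Both pass them through ubiquinone to complex III, through cytochrome c to complex IV and on to oxygen, and the proton gradient that is built up drives complex V, the ATP synthase. Nearly all subunits are encoded in the nucleus, whereas a few core subunits are encoded in mitochondrial DNA, and complex II has only nuclear subunits. Hepatocytes are rich in mitochondria, and CD95 signalling in these cells runs through the release of cytochrome c.

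Promoters of such genes are known for sites of the transcription factors NRF1, GABPA (an ETS factor), YY1 and ERRα. RefSeq promoters of 300 bases, from 250 before to 50 after the start, were found for 74 of the 93 members (GRCm38.p6). Shown are those of 4 members whose decrease passed the test with each mouse left out in turn, because together they hold 1 or more matches to each of these motifs. Each is written 5′ to 3′ on the strand of the gene, with matches to a motif in capitals.
Sdhd, chr9:50603800-50604099, minus strand: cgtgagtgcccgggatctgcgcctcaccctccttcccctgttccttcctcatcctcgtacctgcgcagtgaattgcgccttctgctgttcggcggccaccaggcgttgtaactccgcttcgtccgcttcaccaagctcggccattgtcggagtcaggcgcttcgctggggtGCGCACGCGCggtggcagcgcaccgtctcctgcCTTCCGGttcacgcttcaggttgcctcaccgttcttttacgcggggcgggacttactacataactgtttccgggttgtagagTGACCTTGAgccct
Sdhb, chr4:140961021-140961320, plus strand: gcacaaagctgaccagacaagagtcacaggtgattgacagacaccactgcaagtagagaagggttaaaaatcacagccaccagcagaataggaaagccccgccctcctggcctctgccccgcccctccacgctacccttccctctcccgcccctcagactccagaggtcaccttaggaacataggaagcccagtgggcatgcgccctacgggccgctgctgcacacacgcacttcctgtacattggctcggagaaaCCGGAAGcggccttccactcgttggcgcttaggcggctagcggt
Atp5c1, chr2:10080383-10080682, minus strand, the downstream of its 2 listed starts (the window at the other start holds none of the motifs): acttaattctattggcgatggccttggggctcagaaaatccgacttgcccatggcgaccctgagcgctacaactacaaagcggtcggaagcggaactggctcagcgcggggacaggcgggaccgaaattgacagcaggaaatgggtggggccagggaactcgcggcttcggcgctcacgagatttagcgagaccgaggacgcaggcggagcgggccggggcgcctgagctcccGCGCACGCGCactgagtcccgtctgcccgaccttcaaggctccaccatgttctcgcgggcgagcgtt
Ndufa9, chr6:126849095-126849394, minus strand: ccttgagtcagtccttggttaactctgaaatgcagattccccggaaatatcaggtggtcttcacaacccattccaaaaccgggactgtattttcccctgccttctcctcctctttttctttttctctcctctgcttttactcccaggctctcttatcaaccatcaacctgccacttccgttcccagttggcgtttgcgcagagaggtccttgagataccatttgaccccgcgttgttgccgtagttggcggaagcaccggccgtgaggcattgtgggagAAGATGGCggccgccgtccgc
The Sdhd promoter held, in this order, an NRF1 match, an ETS match and an ERRα match, and no other promoter of the 4 held more than 1 kind. The Sdhb promoter held an ETS match just after the start, Atp5c1 an NRF1 match just before it, and Ndufa9 a YY1 match after it. The letters searched on both strands were GCGC, any 2 bases and GCGC for NRF1, CCGGAAG for ETS, AAGATGGC for YY1, TNAAGGTCA for ERRα and TATAAA for the TATA box, and no 2 of the matches printed overlap. An NRF1 match was present in 28.4% of the 74 members with a promoter and in 7.0% of all 27025 promoters. Atp5c1 was counted as 1 member with a match, although the window at its other start holds none. The ETS letters were found in 24.3% against 9.93%, YY1 in 13.5% against 3.19% and ERRα in 4.05% against 1.43%. TATAAA was rarer among the members, with 9.46% against 15.7%, and the median GC content was 57.7% in members and 52.7% in all promoters. Among the 17 members that passed the test for a decrease, 12 had a promoter in the table, of which 5 held an NRF1 match and 4 an ETS match. A match is a description of the letters and no measure of binding.

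Depth ranged from 25965699 to 62097636 counts per mouse. The libraries of saline-injected mouse 5 (saline 5) and of CD95-Ab mouse 4 (CD95-Ab 4) stood apart from the rest. Mitochondrially encoded genes took 21.9% and 22.1% of their counts, against 7.56% to 18.0% in the other mice, and short mRNAs were high and long mRNAs low in both. Most members have short mRNAs. Values without both of these mice, a comparison chosen after the data were seen, or without 1 of them are therefore given where a call or a median changes.

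The members as a whole took a smaller share of the counts in the livers of mice injected with CD95-Ab. It was 0.922%, 0.906%, 0.951%, 1.01% and 0.994% of all counts in the saline-injected controls and 0.696%, 0.655%, 0.787%, 0.81% and 0.628% after CD95-Ab. Every CD95-Ab mouse was below every control. The mean share was 0.957% ± 0.045 (SD, n = 5) and 0.715% ± 0.080 (SD, n = 5). Over counts without mitochondrially encoded genes it ranged from 0.98% to 1.27% in controls and from 0.731% to 1.04% after CD95-Ab, so that the groups then overlapped. When totals were scaled by the TMM method, which discounts a few very abundant mRNAs, the groups overlapped too. The summed level was then 8223, 7937, 9169, 10096 and 11441 CPM (counts scaled to a common total) in saline-injected mice and 6135, 6562, 8819, 9544 and 6252 CPM after CD95-Ab. CD95-Ab 3 and CD95-Ab 4 lay within the range of the controls, and the highest value was that of saline 5. With saline 5 and CD95-Ab 4 set aside, CD95-Ab 3 still lay within the controls.

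**Figure D1:**
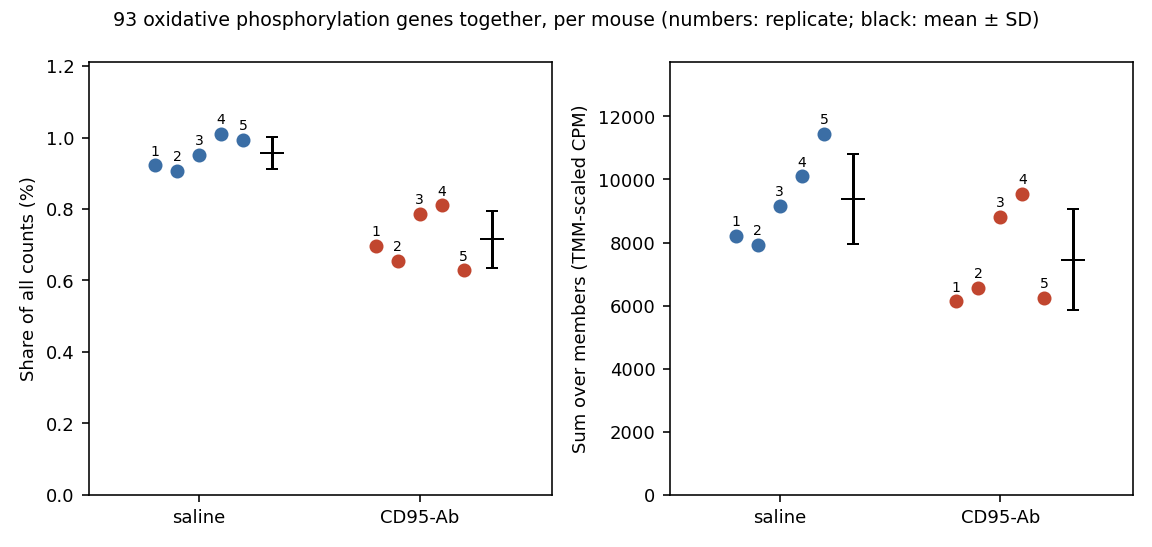
Summed level of the 93 oxidative phosphorylation genes in each mouse, as a share of all counts in % (left) and in TMM-scaled CPM (right), with the replicate number above each point and the mean ± SD in black. The 2 groups are separate on the left and overlap on the right, where CD95-Ab 3 and 4 reach 8819 and 9544 CPM.

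Genes were compared one by one with the quasi-likelihood test of edgeR, with p-values adjusted over all tested genes (FDR) and a threshold of 0.05. Of the 86 tested members, 17 (19.8%) fell and 0 rose. Over all tested genes, 22.0% fell, 25.4% rose and 47.3% did either, and no member was among the genes that rose. With all mice, the share of members that fell was thus near that of all genes. At an unadjusted p under 0.05, edgeR counted 26 lower and 0 higher members, and 3551 lower and 3886 higher of all 13719 tested genes. DESeq2 called 23 members lower (26.7%, against 24.6% of all genes) and 0 higher at the same FDR. The estimate was below 0 for 85 of the 86 members, against 49.6% of all tested genes. The median log2 fold change was -0.31, which is 80.6% of the saline level, with quartiles of -0.39 and -0.21. The median over all tested genes was 0.01. No member changed by 4-fold, the log2 of 2 that the study also used as a limit, whereas 1.11% of all tested genes fell and 6.59% rose that far. In 8 members all CD95-Ab mice were below all controls, against 14.7% of all tested genes.

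The number of members that fell depended on single mice. It ranged from 9 (10.5%), without CD95-Ab 1 or without CD95-Ab 2, to 39 (45.3%), without CD95-Ab 4. Of all tested genes 19.6%, 17.9% and 24.3% fell in these fits, so that whether the members' share was below or above that of all genes depended on single mice. It was 10 (11.6%) without CD95-Ab 5 and 11 (12.8%) without saline 4, against 20.8% and 20% of all genes. Without saline 5 or without saline 3 it was 12 (14.0%), against 21.6% and 19.6%. Without both saline 5 and CD95-Ab 4 it was 26 (30.2%), where 25.1% of all tested genes fell. The median log2 fold change was -0.47 without CD95-Ab 4, -0.18 without saline 5 and -0.34 without both, and without saline 5 the estimate was below 0 for 71 of the 86 members. Of the 17 members that fell, 9 passed the test with each of the 10 mice left out. These were Ndufaf1, Ndufa9, Ndufa4l2, Cox7a2l, Atp5a1, Ndufaf4, Sdhb, Atp5c1 and Sdhd. The other 8 calls were lost without CD95-Ab 1 and also without CD95-Ab 2, at an FDR between 0.0507 (Sdhc) and 0.103 (Ndufa6). All of these but Sdhc were also lost without saline 5 or without CD95-Ab 5. Leaving out saline 4 ended the call for Ndufs3, Ndufa6, Ndufb5, Ndufaf7, Uqcrc1 and Uqcrc2, and leaving out saline 3 for the same genes except Ndufs3. Uqcrc2, Atp5s and Ndufaf7 were lost without saline 1, Atp5s without saline 2 and Ndufa6 without CD95-Ab 3. Without both saline 5 and CD95-Ab 4, 15 of the 17 passed, and Uqcrc2 (-0.31, FDR = 0.0603) and Atp5s (-0.36, FDR = 0.0586) did not. The estimates of the 8 genes lost without single mice kept their direction with each mouse left out.

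**Figure D2:**
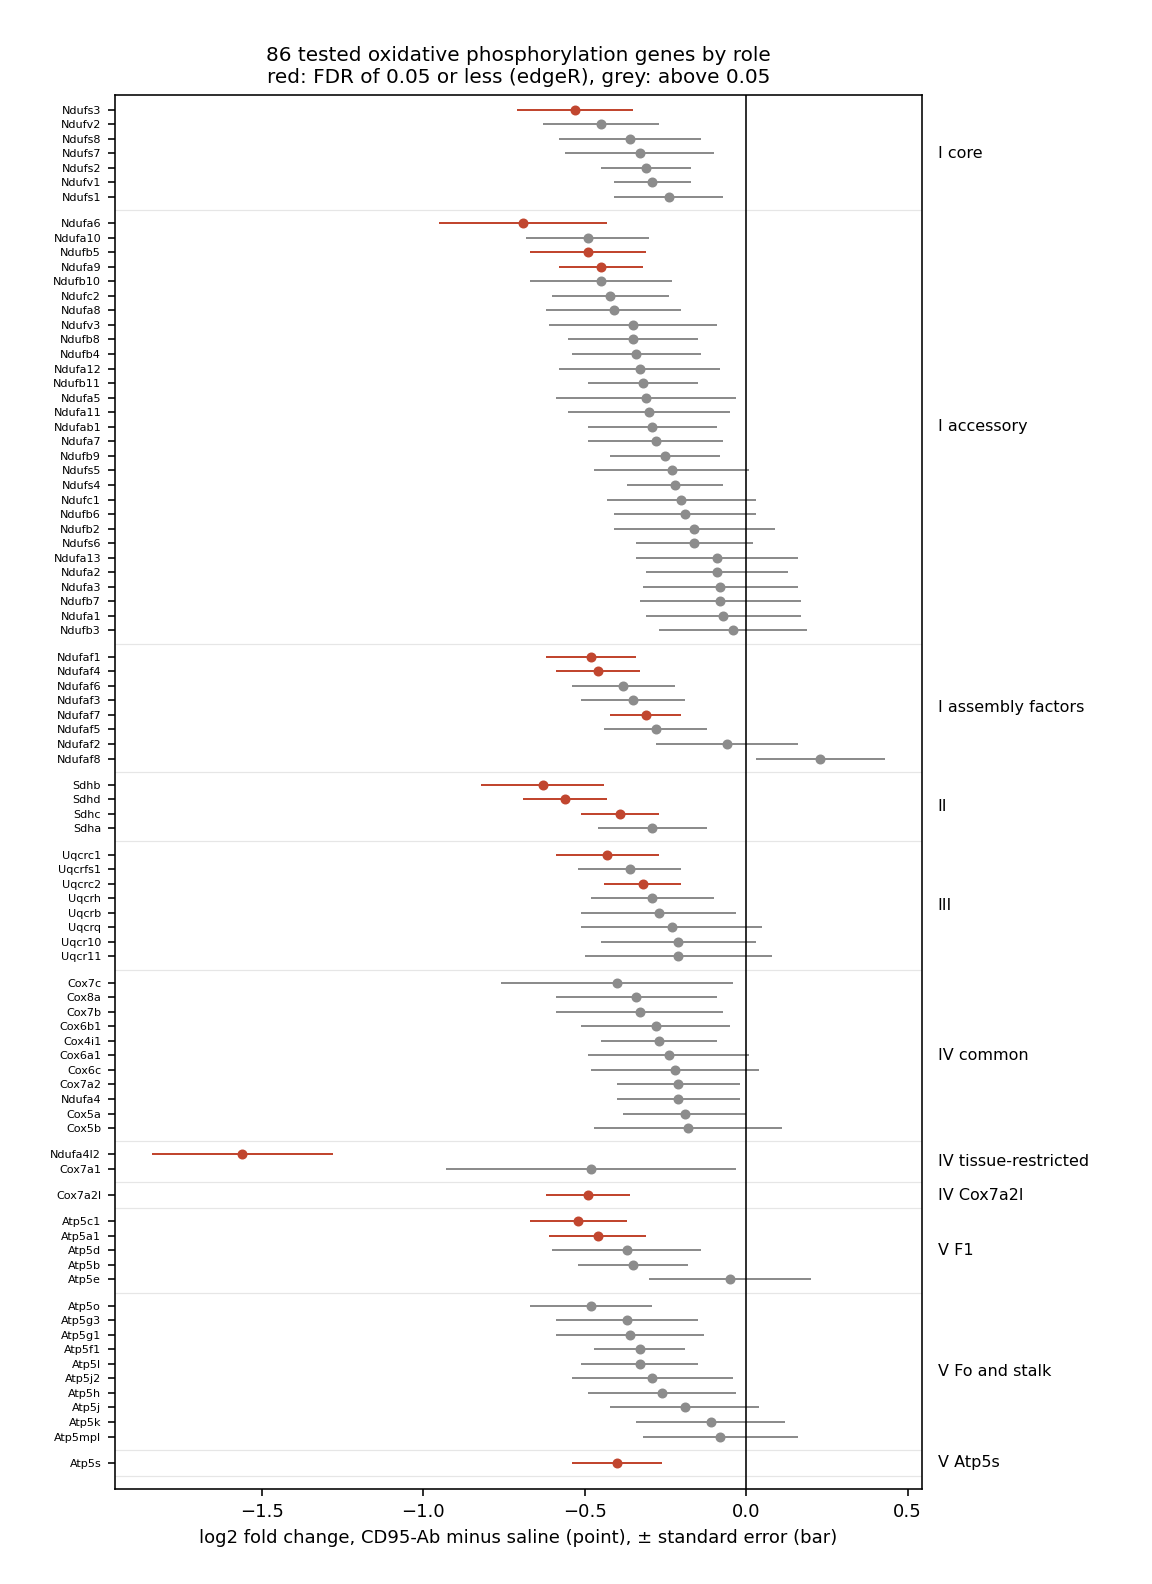
Log2 fold change (CD95-Ab minus saline) of the 86 tested members, grouped by role, with standard errors as bars. The 17 red points have an FDR of 0.05 or less, all of them lie below 0, and Ndufaf8 is the only point above 0.

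In complex I, small decreases were estimated over the whole set of subunits with all mice. All 36 tested subunits had an estimate below 0, with a median of -0.31. Of these 4 (11.1%) fell, against 22.0% of all tested genes. Of the 7 core subunits, which hold the flavin and the iron-sulfur clusters or form the ubiquinone site, Ndufs3 fell. It stood at 79, 78.4, 81.6, 95.7 and 122 CPM in saline-injected mice and at 54.6, 55.1, 70.6, 85.7 and 51.1 CPM after CD95-Ab. CD95-Ab 4 alone reached into the range of the controls. The log2 fold change was -0.53 ± 0.18 (SE, edgeR FDR = 0.029), or 69.5% of the saline level, and the call was kept in 5 of the 10 fits without 1 mouse. Ndufv2, another core subunit, was at -0.45 ± 0.18 (SE, edgeR FDR = 0.0611), and it passed without CD95-Ab 4 (-0.59, FDR = 0.0177) and without saline 1 (-0.52, FDR = 0.0457). The median of the core subunits was -0.33, and -0.58 without CD95-Ab 4. Without both saline 5 and CD95-Ab 4, 5 of the 7 core subunits fell, with Ndufs3 at -0.54 (FDR = 0.0051) and Ndufv2 at -0.43 (FDR = 0.0177), and without saline 5 alone 0 fell with edgeR at this FDR.

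Among the 29 accessory subunits, which surround the core, Ndufa9, Ndufb5 and Ndufa6 fell, and the median was -0.29. Without saline 5, 1 accessory subunit fell and the median was -0.14, without CD95-Ab 4, 12 fell and it was -0.48, and without both, 8 fell and it was -0.34. All 29 estimates were below 0 with all mice, but 22 were without saline 5 and 23 without CD95-Ab 5. Without CD95-Ab 1 it was 25 of them, and without CD95-Ab 2 it was 28. Ndufa9 sits at the junction of the matrix arm and the membrane arm. It was measured at 87, 83.1, 92.2, 105 and 118 CPM in saline-injected mice and 63, 68.5, 79.9, 78.8 and 64.1 CPM after CD95-Ab. The groups did not overlap, and the change of -0.45 ± 0.13 (SE, edgeR FDR = 0.0136) was kept without any single mouse. Ndufb5, a subunit of the membrane arm, had 58.6, 59.3, 68.3, 75.2 and 86.6 CPM in controls and 39.7, 38.7, 55.6, 68.3 and 45.4 CPM after CD95-Ab. Here CD95-Ab 4 lay among the controls, and the log2 fold change was -0.49 ± 0.18 (SE, edgeR FDR = 0.0391), or -0.55 (FDR = 0.00826) without saline 5 and CD95-Ab 4. Ndufa6, which was chosen after its values were seen because it completes the count, was at 88.1, 92.2, 95.5, 96.6 and 165 CPM in controls and 49.9, 49.8, 65.5, 113 and 55.3 CPM after CD95-Ab. Saline 5 and CD95-Ab 4 were each far above the rest of their group. The estimate for Ndufa6 was -0.69 ± 0.26 (SE, edgeR FDR = 0.0436), and without both mice it was -0.77 (FDR = 0.000405). The call of Ndufa6 was kept in 3 of the 10 fits without 1 mouse and that of Ndufb5 in 4. The value of Ndufb4 is uncertain, because its processed pseudogene Ndufb4c drew 479 to 2946 counts per mouse, and reads of such near-identical copies are shared out by the counting program.

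Assembly factors of complex I build the enzyme without being part of it. Of the 8 tested, Ndufaf1, Ndufaf4 and Ndufaf7 fell (37.5%, against 22.0% of all tested genes), and the median was -0.33. Without CD95-Ab 4, 5 of the 8 fell, against 24.3% of all tested genes. In the fits without saline 1, 3, 4 or 5 or without CD95-Ab 1, 2 or 5, 2 of the 8 fell. Of all tested genes 17.9% to 21.6% fell in those fits. Ndufaf1, a factor for the membrane arm, was at 16.9, 16.1, 18.6, 21.6 and 23.7 CPM in controls and 11.2, 13.7, 13.5, 16.3 and 15 CPM after CD95-Ab. One CD95-Ab mouse, the fourth, was just above the lowest control, and the log2 fold change was -0.48 ± 0.14 (SE, edgeR FDR = 0.0158). Ndufaf4 had 21.1, 20.6, 25.9, 20.5 and 27.7 CPM in controls and 16.6, 13.8, 16.2, 19 and 18.2 CPM after CD95-Ab. All CD95-Ab mice were below all controls, with a change of -0.46 ± 0.13 (SE, edgeR FDR = 0.0111). Ndufaf7, a methyltransferase that modifies a core subunit and was likewise chosen after its values were seen, was at -0.31 ± 0.11 (SE, edgeR FDR = 0.0423). Its call was kept in 3 of the 10 fits without 1 mouse. Ndufaf8 was the only tested member with an estimate above 0, at 0.23 ± 0.20 (SE, edgeR FDR = 0.377).

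Complex II, succinate dehydrogenase, links the citric acid cycle with the respiratory chain, and 3 of its 4 subunits fell with all mice. Of all tested genes 22.0% fell in the same fit. Without CD95-Ab 1 or without CD95-Ab 2, 2 of the 4 subunits fell (Sdhb and Sdhd), beside 19.62% and 17.85% of all tested genes. The median log2 fold change over the 4 genes was -0.48, and it stayed between -0.55 and -0.42 with each mouse left out. Sdhd, on chr9:50596357-50603812 (GRCm38, ENSMUSG00000000171), encodes an anchor in the membrane and has the promoter with 3 kinds of motif shown above. It was at 151, 143, 166, 157 and 131 CPM in saline-injected mice and at 84.9, 95.5, 127, 99.3 and 98.7 CPM after CD95-Ab. The highest CD95-Ab mouse, the third, was below the lowest control, which was saline 5. Sdhd changed by -0.56 ± 0.13 (SE, edgeR FDR = 0.00373), or to 67.7% of the saline level.

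Sdhb, the iron-sulfur subunit (chr4:140961203-140979193), had 143, 134, 148, 169 and 210.4 CPM in controls and 85.6, 84.5, 126, 138 and 85.2 CPM after CD95-Ab. CD95-Ab 3 and 4 were high within their group, and CD95-Ab 4 lay just above the lowest control. Its change of -0.63 ± 0.19 (SE, edgeR FDR = 0.0151) was kept with each mouse left out. Sdhc, the other membrane anchor, had 109.6, 106, 112, 126 and 131 CPM in controls and 76.8, 86.6, 102, 101 and 79.4 CPM after CD95-Ab, without overlap, and changed by -0.39 ± 0.12 (SE, edgeR FDR = 0.0213). The call of Sdhc was lost without CD95-Ab 1 (-0.34, FDR = 0.0523) and without CD95-Ab 2 (-0.38, FDR = 0.0507). Sdha, the flavoprotein that oxidises succinate, had 346, 296, 392, 404 and 239 CPM in controls and 266, 283, 332, 216 and 274 CPM after CD95-Ab. The ranges of Sdha overlapped, and its estimate of -0.29 ± 0.17 (SE, edgeR FDR = 0.178) did not pass the test. Without saline 5 it passed (-0.40, FDR = 0.0444), so that all 4 subunits fell in that fit, and without both saline 5 and CD95-Ab 4 it did not (-0.33, FDR = 0.0625).

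In complex III, both core proteins passed the test and the 6 smaller or catalytic subunits of the list did not. The 2 calls were 25.0% of the 8 tested members, near the 22.0% of all tested genes that fell. Cytochrome c1 (Cyc1), a catalytic subunit of this complex that the symbol rule leaves out, also passed (-0.42 ± 0.15, SE, edgeR FDR = 0.0366). It is taken up below. Uqcrc1 had 157, 152, 178, 202 and 212 CPM in controls and 110.0, 131, 161, 159 and 109 CPM after CD95-Ab. Uqcrc2 had 184, 159.8, 201, 207 and 200.4 CPM in controls and 134, 145, 176, 149.7 and 155 CPM after CD95-Ab. In both genes the groups overlapped through CD95-Ab 3, and for Uqcrc1 through CD95-Ab 4 as well. The changes were -0.43 ± 0.16 (SE, edgeR FDR = 0.0406) and -0.32 ± 0.12 (SE, edgeR FDR = 0.0434), and the calls were kept in 4 and 3 of the 10 fits without 1 mouse. Uqcrfs1, which did not pass, had an estimate between these, at -0.36 ± 0.16 (SE, edgeR FDR = 0.0897). All 8 estimates of the members in this complex were below 0, with a median of -0.28. It was -0.15 without saline 5, where 0 of the 8 passed with edgeR at this FDR, -0.47 without CD95-Ab 4, where 4 passed, and -0.29 without both, where Uqcrc1 passed.

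Complex IV, cytochrome c oxidase, hands the electrons to oxygen. None of its 11 common subunits passed the test with edgeR, 0 of them were below an unadjusted p of 0.05, and all 11 estimates were below 0 with a median of -0.24. Cox4i1, which takes part in the control of the enzyme by ATP, was at 207, 212, 223, 239 and 311 CPM in controls and 162, 171, 230.0, 271 and 158 CPM after CD95-Ab. Its estimate was -0.27 ± 0.18 (SE, edgeR FDR = 0.255) and the groups overlapped. Cox8a was at -0.34 ± 0.25 (SE, edgeR FDR = 0.284), and it passed without CD95-Ab 4 (-0.59, FDR = 0.045) and after correction for transcript length (-0.33, FDR = 0.0328). The median of the common subunits was -0.10 without saline 5, -0.45 without CD95-Ab 4 and -0.24 without both.

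Several subunits of complex IV have isoforms that are restricted to muscle, lung, testis or other tissues, and 6 of the 8 on the list were not tested. Cox7b2 and Cox8c had 0 counts in every mouse. Cox8b had at most 1 count, Cox4i2 at most 10, Cox6a2 at most 12 and Cox6b2 at most 22. Cox7a1, the isoform of heart and skeletal muscle, was close to the limit of detection. It was at 0.682, 0.682, 0.620, 0.462 and 1.97 CPM in controls and 0.417, 0.446, 0.756, 1.21 and 0.465 CPM after CD95-Ab, with an estimate of -0.48 ± 0.45 (SE, edgeR FDR = 0.404). Without saline 5, the highest mouse, the estimate was 0.07. Of 11 marker genes of skeletal muscle and brown fat, none reached the filter, and their sum was at most 1.32 CPM in any mouse.

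Ndufa4l2 (chr10:127514967-127517154), a paralogue of the subunit Ndufa4 that is known as a gene induced by low oxygen, fell most among the members. It was at 1.32, 1.22, 1.07, 1.15 and 1.74 CPM in saline-injected mice and 0.385, 0.255, 0.677, 0.525 and 0.399 CPM after CD95-Ab. All CD95-Ab mice were far below all controls, and the change was -1.56 ± 0.28 (SE, edgeR FDR = 0.00075), or 34% of the saline level. This gene is weakly expressed, with a mean of 32.7 counts per mouse, and it overlaps Shmt2 on the opposite strand, which had a mean of 3922 counts and itself changed by -0.77 (FDR = 0.000969). Whether the counting used strand is not given in the sources used here, so reads of the pair may not be told apart. The same holds for Ndufs3 with Kbtbd4, Ndufb5 with Mrpl47, Atp5a1 with Haus1 and Uqcrc2 with Pdzd9, whose partners had 12.9 to 363 counts on average, fewer than the members themselves. Ndufa4 itself was at -0.21 ± 0.19 (SE, edgeR FDR = 0.374).

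The ratio of paralogues was compared within each mouse with exact permutation tests (two-sided, 5 against 5 mice) for the 4 of 7 listed pairs in which both genes were tested. The log2 ratio of Ndufa4l2 to Ndufa4 was -7.32 ± 0.25 (SD, n = 5) in controls and -8.48 ± 0.28 (SD, n = 5) after CD95-Ab, a difference of -1.16 (exact permutation p = 0.00794, adjusted p = 0.0318). This p is the smallest that the design allows, and the same overlap with Shmt2 applies. The ratio of Cox7a2l to Cox7a2 differed by -0.27 (exact p = 0.302, adjusted p = 0.603). Without saline 5 this ratio differed by -0.48 (exact p = 0.0318, not adjusted for the number of pairs). The ratio of Cox7a1 to Cox7a2 differed by -0.09 (exact p = 0.770) and that of Atp5g1 to Atp5g3 by 0.02 (exact p = 0.722). The other 3 pairs had a partner below the filter, among them Atp5g2, whose 0 counts are uncertain.

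Cox7a2l, known as a factor for supercomplexes of complexes III and IV, fell. Whether it has this part in the strain used here was not tested. Its levels were 77.3, 79.4, 78.2, 75 and 56.6 CPM in controls and 50.9, 45.4, 61.7, 55.4 and 47 CPM after CD95-Ab. Saline 5 was below the other controls, and CD95-Ab 3 was above it. The change was -0.49 ± 0.13 (SE, edgeR FDR = 0.00856), and after correction for transcript length it no longer passed (-0.36, FDR = 0.0566).

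With all mice, edgeR and TMM factors, complex V fell in 2 of its 5 F1 subunits, the catalytic head. It fell in none of the 10 tested subunits of the membrane part and stalk. Together 13.3% of the 15 subunits fell, against 22.0% of all tested genes. Of the 10, DESeq2 called 2 with all mice (Atp5f1 and Atp5o), the fit corrected for transcript length 2 and scaling by totals only 4. With edgeR and TMM factors but without CD95-Ab 4 the counts were 3 of 5 and 4 of 10. Without both saline 5 and CD95-Ab 4 they were 2 of 5 and 1 of 10. Atp5c1 (chr2:10056016-10080510), the central shaft that turns within the head, was at 185, 172, 205, 218 and 270.3 CPM in controls and 129, 129, 170.5, 168 and 136 CPM after CD95-Ab. There was no overlap, and the change was -0.52 ± 0.15 (SE, edgeR FDR = 0.0146). Atp5a1, the alpha subunit of the head, was at 727, 648, 785, 889 and 667 CPM in controls and 521, 529, 665, 494 and 488 CPM after CD95-Ab. One mouse, CD95-Ab 3, lay within the controls, and the change was -0.46 ± 0.15 (SE, edgeR FDR = 0.0209).

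Atp5b, the beta subunit that makes ATP, had the same direction and missed the threshold with all mice. It stood at 866, 742, 976, 997 and 642 CPM in controls and 641, 652, 858, 567 and 606 CPM after CD95-Ab, with an estimate of -0.35 ± 0.17 (SE, edgeR FDR = 0.116). It passed without saline 5 (-0.43, FDR = 0.0412) and without CD95-Ab 3 (-0.45, FDR = 0.0412). The median was -0.37 over the F1 subunits and -0.31 over the membrane part and stalk. These were -0.42 and -0.13 without saline 5, -0.45 and -0.49 without CD95-Ab 4, where their order turned, and -0.45 and -0.33 without both. Of the latter, Atp5o of the peripheral stalk was at -0.48 ± 0.19 (SE, edgeR FDR = 0.0577) and Atp5f1 at -0.33 ± 0.14 (SE, edgeR FDR = 0.0764). Both passed without CD95-Ab 4 (-0.66, FDR = 0.011, and -0.39, FDR = 0.0395), Atp5f1 also without CD95-Ab 3 (-0.41, FDR = 0.0385) and Atp5o also without both saline 5 and CD95-Ab 4 (-0.50, FDR = 0.0103). Atp5g1, Atp5g2 and Atp5g3 encode the same mature protein of the rotor ring. Atp5g1 was at -0.36 and Atp5g3 at -0.37, neither past the threshold, and Atp5g3 passed without CD95-Ab 4 (-0.56, FDR = 0.0459). Atp5g2 was listed at 0 counts in every mouse. This gene is usually expressed in liver, and with the annotation of the counting not known, the 0 is not read as absence of its mRNA. Atp5s, a weakly expressed factor linked to the enzyme, had 3.69, 3.71, 3.33, 3.39 and 4.13 CPM in controls and 2.63, 2.90, 3.03, 2.79 and 2.55 CPM after CD95-Ab. The groups were separate, and the change was -0.40 ± 0.14 (SE, edgeR FDR = 0.0336). The call of Atp5s was kept in 4 of the 10 fits without 1 mouse. It was lost without both saline 5 and CD95-Ab 4 (FDR = 0.0586) and after correction for transcript length (FDR = 0.0916).

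Levels were compared between genes with the FPKM values of the files, which are divided by transcript length. In saline-injected mice Ndufa4 at 524 ± 38.4 (SD, n = 5), Atp5b at 520.5 ± 36.8 (SD, n = 5) and Atp5g3 at 495 ± 53.6 FPKM (SD, n = 5) were highest, and these 3 did not differ beyond their spread. The median level of the subunits was 76.2 FPKM for the core of complex I and 78.3 FPKM for its accessory subunits. It was 126 FPKM for complex II, 209 FPKM for complex III, 248 FPKM for the common subunits of complex IV, 269 FPKM for the F1 part and 204 FPKM for the membrane part and stalk of complex V. Assembly factors of complex I were far lower, at 3.13 to 15.4 FPKM. The lowest tested members were Ndufa4l2 at 1.47 ± 0.207, Atp5s at 2.63 ± 0.285 and Cox7a1 at 2.85 ± 1.58 FPKM (SD, n = 5).

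**Figure D3:**
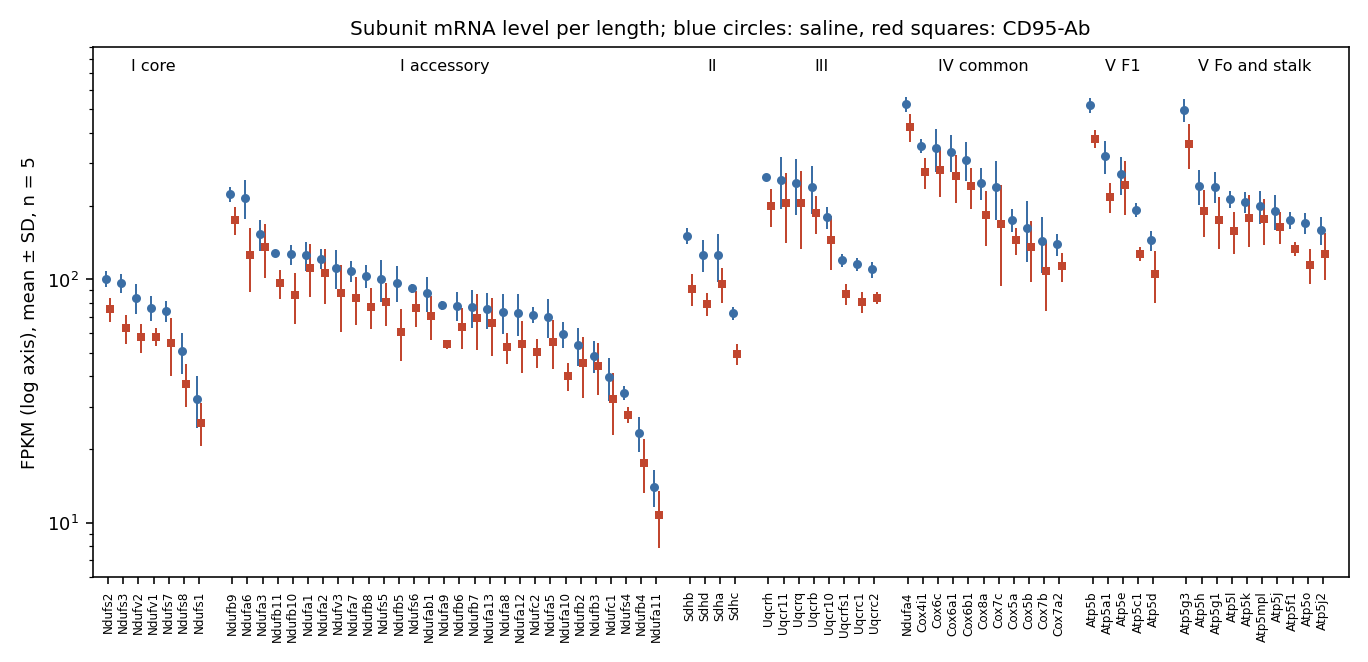
FPKM (log axis) of the tested subunits in saline-injected mice (blue circles) and after CD95-Ab (red squares), mean ± SD of 5 mice, ordered by level within each complex. Subunits of complexes III to V lie mostly above those of complex I, and the order within a complex is similar in both groups.

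Among the members, transcript length moved with both the error and the calls. The members have a median effective length of 706 nt, against 2486 nt for all tested genes. Of 59 members under 1000 nt, 4 fell. Their median log2 fold change was -0.28 and their median standard error 0.23. Of 27 members of 1000 nt or more, 13 fell, with a median of -0.36 and a median standard error of 0.15. Over all tested genes of any length 22.0% fell. The share that fell among all short or all long genes was not counted, so the difference is not shown to be particular to the members. The short members were more spread within the groups, since they lay 0.54 above the group mean in saline 5 and 0.62 above it in CD95-Ab 4 on the log2 scale, whereas long members lay 0.14 and 0.18 above. Over all tested genes, the 2744 shortest were 0.24 and 0.32 above the group mean in these mice and the 2744 longest at -0.16 and -0.24. A fit that adjusted each mouse for transcript length, added after the data were seen, gave 23 lower members (26.7%, against 24.2% of all genes). Of these 13 were among the 17, and the median over the members was -0.25. Ndufaf7, Uqcrc2, Atp5s and Cox7a2l were lost in this fit.

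**Figure D4:**
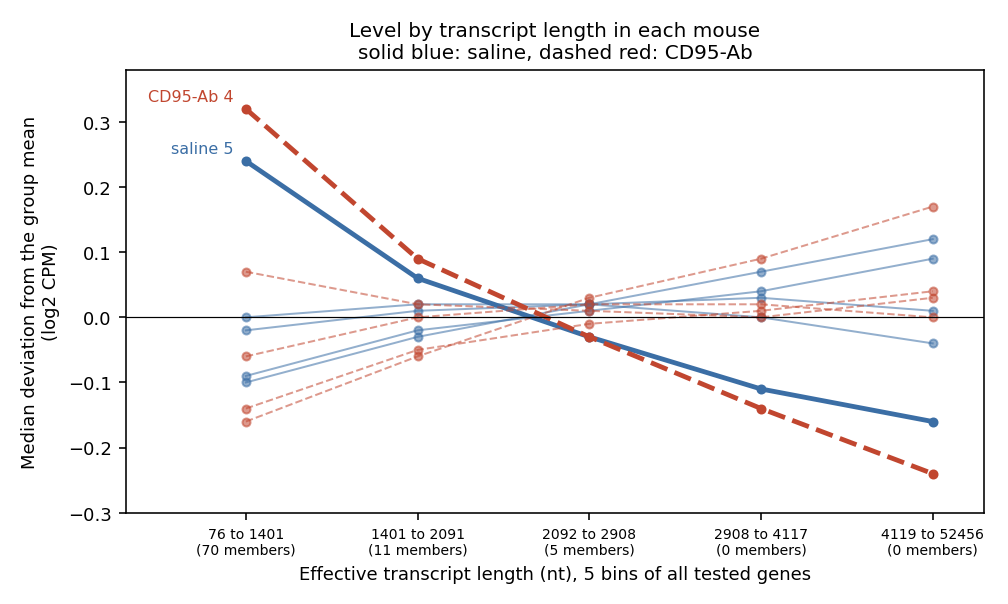
Median deviation from the group mean (log2 CPM) in 5 bins of all tested genes by effective transcript length (nt), 1 line per mouse, with the number of members in each bin. Saline 5 (thick blue) and CD95-Ab 4 (thick dashed red) start at 0.24 and 0.32 in the bin of the shortest, which holds 70 of the 86 members, and end at -0.16 and -0.24.

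Genes around the respiratory chain were listed by function, and their lists were not compared with the members in a test. Of 42 tested assembly factors outside the symbol rule, 22 (52.4%) fell and 0 rose, with a median of -0.37, against 22.0% of all tested genes that fell and 25.4% that rose. Tmem126b, a factor for the membrane arm of complex I, was at 12.3, 13.2, 11.5, 12 and 10.3 CPM in controls and 5.52, 4.97, 3.66, 4.76 and 5.91 CPM after CD95-Ab, and changed by -1.25 ± 0.14 (SE, edgeR FDR = 3.43e-05). Uqcc1, a factor for complex III, changed by -0.70 ± 0.10 (SE, edgeR FDR = 0.000127), and both were separate between groups. Of 13 genes of ubiquinone synthesis 6 (46.2%) fell and 1 (7.69%) rose. Coq9 changed by -0.84 ± 0.11 and Coq10a by -1.20 ± 0.18, whereas Coq8b rose by 0.85 ± 0.24 (SE, edgeR FDR = 9.87e-05, 0.000194 and 0.0126).

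Of 12 carriers and cytochrome c genes, 4 (33.3%) fell and 2 (16.7%) rose, beside the same 22.0% and 25.4% of all genes. The pore Vdac1 changed by -0.60 ± 0.12, the ATP/ADP carrier Slc25a5 by -0.50 ± 0.14 and cytochrome c1 of complex III, Cyc1, by -0.42 ± 0.15 (SE, edgeR FDR = 0.00193, 0.0108 and 0.0366). In contrast, Ucp2, an inner membrane carrier, rose from 20.3, 21, 15.9, 21.3 and 32.4 CPM to 45, 63.9, 80.8, 56.7 and 46.4 CPM. Its change was 1.40 ± 0.21 (SE, edgeR FDR = 0.000229), and Slc25a4, the ATP/ADP carrier of muscle, rose by 0.59 ± 0.20 (SE, edgeR FDR = 0.0271). The calls of Cyc1 and Slc25a4 were each lost in 6 of the 10 fits without 1 mouse, at an FDR of up to 0.0891 and 0.0774. Cytochrome c, Cycs, was at 0.27 ± 0.24 (SE, edgeR FDR = 0.381).

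A list of regulators of mitochondrial genes also held a few other mitochondrial proteins, among them Sod2, Lonp1, Hspd1 and Hspe1. Of its 28 tested genes, 12 (42.9%) fell and 4 (14.3%) rose, against 22.0% and 25.4% of all genes. Several moved by more than 1 on the log2 scale. Ppargc1b, a coactivator of respiratory chain genes, was at 6.49, 5.16, 6.96, 6.31 and 6.77 CPM in controls and 1.03, 0.733, 1.15, 0.565 and 0.841 CPM after CD95-Ab. It was lower in all CD95-Ab mice, at 13.7% of the saline level (-2.87 ± 0.20, SE, edgeR FDR = 1.38e-06). Its relative Ppargc1a was at 9.53, 6.43, 10.8, 5.39 and 7.71 CPM in controls and 4.91, 3.57, 2.35, 0.888 and 2.13 CPM after CD95-Ab, a change of -1.52 ± 0.36 (SE, edgeR FDR = 0.00459). Esrra, which encodes ERRα, changed by -1.24 ± 0.15, the mitochondrial deacetylase Sirt3 by -1.43 ± 0.13 and the mitochondrial transcription factor Tfam by -0.66 ± 0.13 (SE, edgeR FDR = 4.86e-05, 5.40e-06 and 0.00173). All 5 were separate between the groups.

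Of the factors whose motifs were searched, Nrf1 and Gabpa did not pass the test. Nrf1 was at -0.10 ± 0.13 and Gabpa at -0.19 ± 0.18 (SE, edgeR FDR = 0.571 and 0.429). Yy1 fell by 0.40 ± 0.14 on the log2 scale and Gabpb1, the partner of Gabpa, rose by 0.49 ± 0.17 (SE, edgeR FDR = 0.0307 and 0.0307). These 2 genes were chosen after their values were seen, their groups overlapped, and the calls were lost without single mice, among them saline 5 (FDR = 0.0525 and 0.0613). Of the genes on this list that rose, Sod2, the mitochondrial superoxide dismutase and itself no regulator of these genes, changed by 1.38 ± 0.15. The corepressor Nrip1 changed by 1.17 ± 0.16 (SE, edgeR FDR = 1.84e-05 for Sod2 and 0.000102 for Nrip1). Pprc1, the remaining coactivator of the PGC-1 family, was chosen after its values were seen and rose by 0.89 ± 0.16 (SE, edgeR FDR = 0.000744). Over the 13 mitochondrially encoded subunits the median was 0.48 with all 13 above 0. None passed the test with edgeR, 0 were below an unadjusted p of 0.05, and their share of the counts was highest in saline 5 and CD95-Ab 4 within each group. The largest estimates were mt-Nd2 at 0.55 ± 0.45 and mt-Co2 at 0.52 ± 0.43 (SE, edgeR FDR = 0.334 and 0.339), and without saline 5 they passed at 1.10 (FDR = 0.0219) and 0.99 (FDR = 0.0396). Without both saline 5 and CD95-Ab 4, mt-Nd2 was at 0.81 (FDR = 0.0385).

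**Figure D5:**
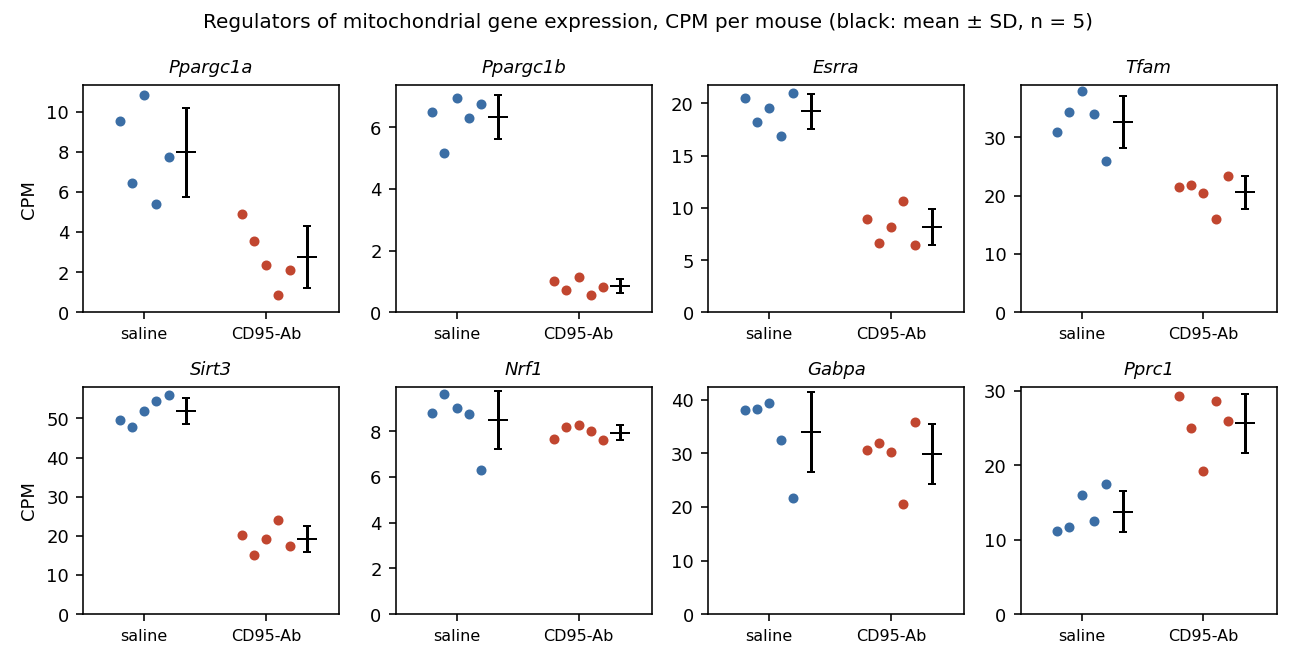
CPM of 8 regulators of mitochondrial gene expression in each mouse, with mean ± SD in black. Ppargc1a, Ppargc1b, Esrra, Tfam and Sirt3 are lower in every CD95-Ab mouse than in any control, Nrf1 and Gabpa overlap, and Pprc1 is higher.

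The levels of cell type marker genes also differed between the groups. The summed level of 20 hepatocyte markers was 154611 to 186491 CPM in controls and 84502 to 134842 CPM after CD95-Ab. Of these markers 10 (50%) fell and 0 rose, with a median of -0.73, against 22.0% and 25.4% of all tested genes. Most markers of neutrophils, erythroid cells, endothelium and lymphocytes were higher. The 13 neutrophil markers summed to 4.54 to 11.6 CPM in controls and 114 to 480 CPM after CD95-Ab, and all 8 tested rose. All 7 erythroid markers rose, from 135 to 325 CPM in controls to between 1066 and 34052 CPM. Of 8 endothelial markers 7 rose and of 11 lymphocyte markers 9. Of 11 macrophage markers 3 (27.3%) rose, which is near the 25.4% of all tested genes. The macrophage sums overlapped, with 191 to 638 CPM in controls and 383 to 814 CPM after CD95-Ab. In bulk tissue, fewer hepatocytes and less mRNA in each hepatocyte cannot be told apart, and the part of the other cell types in the lower levels of the members was not tested.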

How the data were processed

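Liver RNA of 10 mice was sequenced, and groups and replicate numbers came from the sample labels. Reads were assigned to genes by the authors with RSEM 1.2.19. Each expected count deposited by the authors is a whole number without normalization. Each FPKM value deposited by the authors is divided by transcript length and by library total. The study names a human Gencode release for the assignment, whereas the identifiers in the files are those of mouse genes in Ensembl. The mouse release and genome build are not given in the sources used here. Gene symbols, gene types and coordinates came from GENCODE M21 (GRCm38), which held 37606 of the 38922 identifiers, and promoters from RefSeq. The symbol rule matched 94 protein-coding genes, of which 93 were in the files, and 11 pseudogenes, which were left out.

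Genes were kept by filterByExpr with a minimum count of 10, and the quasi-likelihood test was run on the counts in edgeR 4.0.16 (R 4.3.3) with TMM factors and a term for group. Standard errors were derived from the F statistic. DESeq2 1.42.0, other scaling factors, other filters, a replicate block and each mouse left out were alternatives. Summaries used scipy 1.17.1 and pandas 2.3.3 under Python 3.11.15. Ratios of paralogues used log2(CPM + 0.1) and the exact permutation test. At the lowest depth 3 counts correspond to 0.116 CPM, and such floors cover counting error only. The code was tested on simulated data. The replicate numbers were checked for pairing and not treated as pairs.

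Named were, for each role, the 2 tested members with the lowest p in each direction, all members past an FDR of 0.05 and a log2 fold change of 1, all of complex II, tested restricted isoforms of complex IV, paralogue pairs, and the 3 highest and 3 lowest FPKM values. From the other lists, 8 genes fixed by name and the 2 with the lowest p in each direction were named. Members and lists were chosen with earlier results of these data known, and the motifs after the data had been seen.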

Additional observations from a re-analysis of the deposited data

Results flagged for a closer look

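In the named genes, the highest or lowest mouse of a group was compared with the rest of its group by Dixon's ratio (critical value 0.71 for 5 mice). Of 114 group tests, 10 passed, and chance flags about 1 in 20 groups. Saline 5 held 8 of the 10. It was below the other controls for Cox7a2l, at 56.6 CPM, and for Nrf1, at 6.29 CPM. It was above them for Ndufa6, at 165 CPM, Cox8a, at 176 CPM, Cox7a1, at 1.97 CPM, Slc25a4, at 6.54 CPM, mt-Co2, at 23094 CPM, and mt-Nd2, at 16005 CPM. Ndufa6 was also high in CD95-Ab 4, at 113 CPM, so that both libraries that stand apart were flagged for this gene. The remaining value was Atp5a1 in CD95-Ab 3, which at 665 CPM was above the other mice injected with CD95-Ab.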

How the results depend on the processing

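No member rose under any alternative. The number that fell was 17, and it was 3 at an FDR of 0.01 and between 9 and 39 with each mouse left out. With upper-quartile factors it was 27 (31.4%, against 26.2% of all tested genes) and with totals only 37 (43.02% against 23.65%). Without saline 5 and CD95-Ab 4 it was 26 (30.2% against 25.1%). The median log2 fold change over all tested genes was 0.006 in the main fit, -0.071 with upper-quartile factors and -0.075 with totals only. That of the members was -0.31, -0.39 and -0.4 in these fits. The number of members that fell was 12 (14.1%, against 22.0% of all tested genes) when 10 counts were required in every mouse. With the replicate number as a block it was 13 (15.1% against 19.5%), all among the 17. The numbers were not shown to pair mice, since the correlations of their deviations lay between -0.274 and 0.257 and 4 of 10 mice correlated best with their own number. The median of the complex I core lay between -0.58 and -0.27 with each mouse left out. The Ndufa4l2 to Ndufa4 difference was -1.16 in a sign-flip test over the replicate block (exact p = 0.0625, the smallest possible). The difference in the Cox7a1 to Cox7a2 ratio was 0.06 with a pseudocount of 1 CPM, 0.01 without saline 5 and CD95-Ab 4, and -0.28 to 0.11 with each mouse left out. That of Cox7a2l to Cox7a2 was -0.48 to -0.17 and that of Atp5g1 to Atp5g3 -0.01 to 0.05. Cox7a1 was at -0.84 without CD95-Ab 4 and 0.07 without saline 5. For the 56 genes named, 974 of 1119 repeated values kept direction and side of the threshold, 113 lost the call, 31 gained it and 1 changed sign. The cause was not tested. Depth limits the isoforms with few counts.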
